A study of Arabidopsis thaliana with 6 samples.

Results

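The LHCB4 genes of Arabidopsis thaliana encode CP29, a minor antenna protein of photosystem II, and the genome has 3 of them, LHCB4.1, LHCB4.2 and LHCB4.3. They were taken as the probe sets whose single annotated gene has one of these symbols. Each gene had 1 such probe set, so 3 of the 13286 genes with a named probe set on the array are described here. They were chosen with their values in the comparison of the genotypes already known, so their levels and differences are given as a description, with no test.

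CP29 binds chlorophyll a, chlorophyll b and xanthophylls in the thylakoid membrane. It sits as a monomer between the trimeric light-harvesting complexes and the core of photosystem II, next to the core antenna CP47, and passes excitation energy inward. It also takes part in the harmless dissipation of excess light energy and can be phosphorylated in strong light. LHCB4.1 and LHCB4.2 encode closely similar proteins. LHCB4.3 encodes a form that lacks a stretch near its C-terminal end and has been described as responsive to strong light.

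Transgenic seedlings overexpressed OsTOP6A1, a rice cDNA for an A subunit of topoisomerase VI, an enzyme that passes DNA duplexes through one another, and were set against wild type seedlings, with 3 Affymetrix arrays per genotype. All seedlings were of the Columbia ecotype, 10 days old, and grown in continuous light on agar medium with 2% sucrose, after 72 h in the cold as seeds. The labels call the samples of a genotype biological replicates and give neither the promoter of the transgene nor the number of transgenic lines, so p-values measure the spread between these arrays. The rice transcript itself was not analysed here.

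Intensities were deposited per probe set, not logged, and already had the same trimmed mean of 100 on every array. Array medians lay between 37.5 and 38.6 in transgenic and between 38.0 and 39.3 in wild type seedlings. The ratio of the GAPDH control probe set for the tail end of the transcript to that for its start lay between 1.31 and 1.46 in transgenic and between 1.36 and 1.44 in wild type seedlings. The same ratio for actin lay between 16.4 and 22.2 in transgenic and between 17.7 and 20.3 in wild type seedlings. Why it was so much higher for actin than for GAPDH was not tested. The label of light-grown seedlings was checked against markers. RCA, the activase of the carbon-fixing enzyme and the only green leaf marker of 8 with a named probe set, read 3887 to 4405 in transgenic and 3612 to 4273 in wild type seedlings. Of 5 root markers 4 had a named probe set. Their summed intensity was 3845 to 4375 in transgenic and 3790 to 4329 in wild type seedlings. Most of it came from PYK10, with means of 3366 in transgenic and 3219 in wild type seedlings, and NAI2, with 754 and 726. EXPA18, at 39.1 and 36.7, lay near the array medians, and EXPA7, at 23.7 and 22.5, below them. The 5 seed markers were not analysed here. In whole seedlings, fewer cells of a type and less RNA per cell cannot be told apart.

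The first question was how the LHCB4 genes stood in the 2 genotypes. LHCB4.2 was about 3 times as high in transgenic as in wild type seedlings, LHCB4.3 was lower, and LHCB4.1 overlapped between the genotypes. The genotypes did not overlap for 2 of the 3 genes. Among all 22746 probe sets tested they did not overlap for 34.9%. Nothing is read from this count, because the genes were picked from the same comparison.

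LHCB4.2 (AT3G08940, chromosome 3) had intensities of 1873, 1839 and 2026 in transgenic seedlings, against 530.4, 614 and 650.0 in wild type seedlings. Every transgenic array lay far above every wild type array. The lowest transgenic value was 2.83 times the highest wild type value. The means were 1913 ± 99.5 in transgenic and 598 ± 61.4 in wild type seedlings (SD, n = 3 each), a ratio of 3.2. On the log2(intensity + 16) scale, on which the genotypes were compared throughout, the difference was 1.65, transgenic minus wild type. Of all probe sets tested, 80 had a higher difference.

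LHCB4.3 (AT2G40100, chromosome 2) had intensities of 93.9, 139 and 168 in transgenic seedlings, against 198, 248 and 267 in wild type seedlings. The highest transgenic array stayed below the lowest wild type array, but the gap between them was narrow, with a ratio of 1.17. The transgenic arrays were spread widely, with replicate 1 far below the other two. The means were 134 ± 37.6 in transgenic and 238 ± 35.9 in wild type seedlings (SD, n = 3 each). The coefficient of variation was 28.0% in transgenic and 15.1% in wild type seedlings. The log2 difference was -0.78, and 214 probe sets had a lower one. For this dim probe set it depended on the number added before the log, and was -0.85 with 1 and -0.62 with 64. Without transgenic replicate 1 it was -0.57, and without transgenic replicate 3 it was -0.95.

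LHCB4.1 (AT5G01530, chromosome 5) had intensities of 3522, 3488 and 3424 in transgenic seedlings, against 2815, 3534 and 3325 in wild type seedlings. Wild type replicate 2 was above every transgenic array, and wild type replicate 1 was below all others. The means were 3478 ± 50.2 in transgenic and 3225 ± 370.0 in wild type seedlings (SD, n = 3 each), so the difference of the means was smaller than the wild type SD. The log2 difference was 0.12, and 0.02 without wild type replicate 1.

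**Figure D1:**
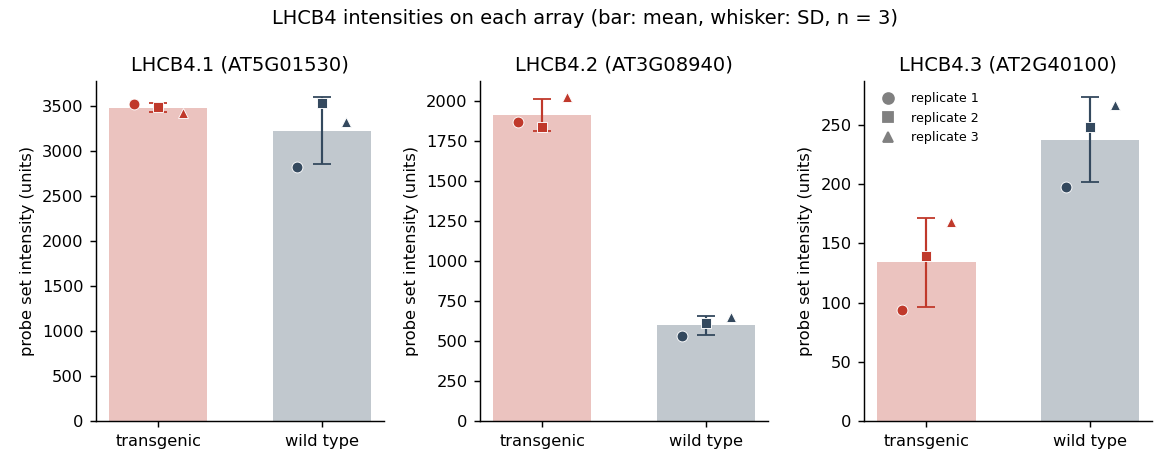
Probe set intensity (linear scale, intensity units) of LHCB4.1, LHCB4.2 and LHCB4.3 in transgenic and wild type seedlings. Bars are means, whiskers SDs (n = 3) and symbols single arrays. LHCB4.2 stands at 1913 in transgenic and 598 in wild type seedlings, LHCB4.3 at 134 in transgenic and 238 in wild type seedlings, and the LHCB4.1 arrays overlap.

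LHCB4.1 gave the brightest probe set of the 3 in both genotypes and LHCB4.3 the dimmest. How strongly a probe set binds its transcript differs between probe sets, so this order is one of signals, and no ratio of transcript levels between the genes was formed. None of the 3 probe sets carries the suffix that Affymetrix gives to sets shared by several transcripts. Whether transcripts of the similar genes LHCB4.1 and LHCB4.2 bound each other's probes was not tested.

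The second question was how the genes differed from each other in their change. For this the log2 difference between 2 genes was taken within each array. The log2 difference LHCB4.2 minus LHCB4.1 was -0.91, -0.92 and -0.75 on the transgenic arrays, against -2.37, -2.49 and -2.33 on the wild type arrays. The within-genotype spread was small, with SDs of 0.09 in transgenic and 0.09 in wild type seedlings. The distance between the genes thus shifted by 1.54, transgenic minus wild type, toward LHCB4.2.

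The log2 difference LHCB4.3 minus LHCB4.1 was -5.01, -4.50 and -4.22 on the transgenic arrays, against -3.73, -3.75 and -3.56 on the wild type arrays. The genotypes did not overlap here either, and the shift was -0.90. For these genes, one bright and one dim, it depended on the number added before the log, and was -0.97 with 1 and -0.73 with 64. Its SD was 0.40 in transgenic and 0.10 in wild type seedlings. LHCB4.2 minus LHCB4.3 was 4.1, 3.58 and 3.47 on the transgenic arrays, against 1.36, 1.26 and 1.23 on the wild type arrays, a shift of 2.44. This last distance was the one that moved most among the 3 pairs, since its genes lay on opposite sides of their wild type values.

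The third question was how the genes varied among replicates of 1 genotype, which the difference between genotypes does not enter. All 3 LHCB4 genes had their lowest wild type value on replicate 1. Their log2 deviations from the wild type mean were -0.19, -0.16 and -0.24 there for LHCB4.1, LHCB4.2 and LHCB4.3. On replicate 2 they were 0.14, 0.04 and 0.07, and on replicate 3 0.05, 0.12 and 0.17. In transgenic seedlings the lowest array was a different one for each gene: replicate 3 for LHCB4.1, replicate 2 for LHCB4.2 and replicate 1 for LHCB4.3.

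Other nuclear photosynthesis genes were low on the same wild type array. Of 19 nuclear genes of photosynthesis and chlorophyll metabolism with a probe set, 16 (84.2%) had their lowest wild type value on replicate 1, beside 32.5% of all probe sets. Their median log2 deviation was -0.14 on wild type replicate 1, 0.10 on replicate 2 and 0.08 on replicate 3, beside 0.01 on replicate 1 for all probe sets. The plastid genes for photosystem II did not share this common fall, with 4 of 15 (26.7%) lowest on wild type replicate 1 and a median deviation of 0.08 there. Some of them still deviated strongly on that array, in both directions. The deviation was 0.95 for psbK and 0.51 for psbI, against -0.84 for psbC and -0.60 for psbD. Over both kinds of gene 20 of 34 (58.8%) were lowest on that array, with a median of -0.07. Of the nuclear genes, 11 of 19 (57.9%) also had their lowest transgenic value on 1 array, replicate 2, beside 32.1% of all probe sets, but their median deviation there was only -0.03. PSAN, a small subunit of photosystem I, read 1476 on wild type replicate 1 against 2336 and 2133 on the others. PORB, a light-dependent enzyme of chlorophyll synthesis, read 751 against 1305 and 1245. The control probe set for the large ribosomal RNA was highest on this array, at 1062, against 419 and 624 on the other wild type arrays and 672 to 917 on the transgenic arrays. Its part in the values was not tested. This array was picked out after its values were seen.

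**Figure D2:**
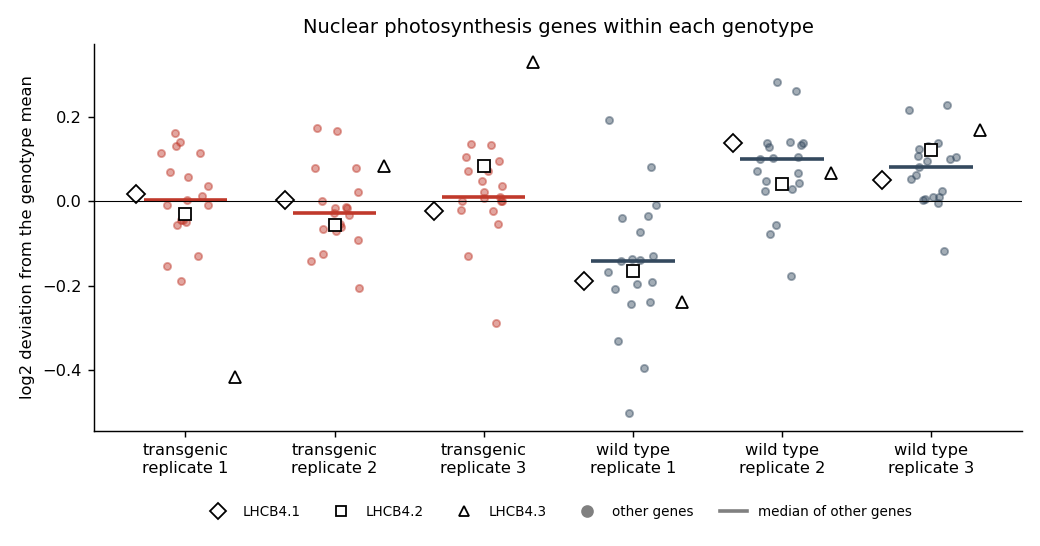
Log2 deviation of each gene from the mean of its genotype, by array, for the LHCB4 genes (open symbols) and 19 other nuclear photosynthesis genes (dots, with their median as a line). On wild type replicate 1 the median is -0.14 and all 3 LHCB4 genes lie below 0, while the transgenic arrays have medians near 0, between -0.03 and 0.01.

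The fourth question was whether other genes of light harvesting, the photosystems and chlorophyll metabolism differed between the genotypes. The 11 lists drawn up for this held 140 genes, of which 34 had a named probe set. A gene counts here as having a probe set only where the annotation used gave it one of its own. The other antenna proteins of photosystem II (13 genes, among them the minor antenna genes LHCB5 and LHCB6) had none. Nor had the antenna proteins of photosystem I (6 genes) and the factors that insert antenna proteins into the membrane (6 genes). These genes were not analysed here, and whether other probe sets of the array measure them was not examined. In limma, with adjustment over all probe sets, 5 of the 34 genes rose and 4 fell at an adjusted p under 0.05. That was 26.5% of them, beside 15.3% of all named genes and 16.5% of all probe sets. The share was 21.1% among the 19 nuclear genes and 33.3% among the 15 plastid genes. The median log2 difference of the 34 was 0.07, beside -0.02 for all probe sets. The count of 9 fell to 5 without transgenic replicate 1, 4 without transgenic replicate 3 and 5 without wild type replicate 3, and was 14 without wild type replicate 1.

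The nuclear subunits of the photosystems and the antenna-like proteins did not pass with all 6 arrays. PSBW and PSBY, small subunits of photosystem II, had log2 differences of 0.03 and 0.29, and PSB27, an assembly factor of the same complex, 0.15. PSBY had means of 2649 ± 61.6 in transgenic and 2174 ± 209 in wild type seedlings (SD, n = 3 each) and lay just beyond the threshold (limma adjusted p = 0.0552), which it passed in 5 alternatives, among them the omission of wild type replicate 2 (limma adjusted p = 0.0422). PSAE-1 and PSAN of photosystem I had log2 differences of 0.07 and -0.09, and without wild type replicate 1 PSAN passed as lower, at -0.29 (limma adjusted p = 0.0439). LIL3:1 and LIL3:2, antenna-like proteins that help supply chlorophyll, had 0.13 and 0.20. None of these 7 nuclear genes had a log2 difference as far from 0 as LHCB4.2 or LHCB4.3. Nothing is read from this, because the LHCB4 genes were chosen with their differences known.

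In the list of antenna phosphorylation and energy dissipation, 2 of 11 genes had a probe set and both fell. Of all named genes 7.85% fell. PGRL1B (AT4G11960), a thylakoid protein of cyclic electron flow around photosystem I, had intensities of 98.7, 89.3 and 94.9 in transgenic seedlings, against 148, 158 and 152 in wild type seedlings. The arrays of each genotype lay close together and the groups were well apart. Its log2 difference was -0.61 (SE 0.07, limma adjusted p = 0.00102), and its call held in all 14 alternatives. The plastid lipocalin gene CHL (AT3G47860), which protects the thylakoid under stress, had 228, 296 and 266 in transgenic seedlings, against 335, 440.4 and 428 in wild type seedlings. All 3 transgenic arrays were below all 3 wild type arrays. Its log2 difference was -0.58 (SE 0.13, limma adjusted p = 0.0223), a call that ended without transgenic replicate 1 or 3 or wild type replicate 2 or 3 taken singly (adjusted p of up to 0.0805). It also ended with a pseudocount, the number added before the log, of 1 in place of 16 (limma adjusted p = 0.0750).

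Of 24 genes of tetrapyrrole and chlorophyll synthesis 8 had a probe set, and 1 rose, 0 fell and 7 did not pass. The share that passed was 12.5%, beside 15.3% of all named genes. CHLM (AT4G25080), the methyltransferase that acts after magnesium insertion, had intensities of 792, 787 and 875 in transgenic seedlings, against 552, 626 and 641 in wild type seedlings. The genotypes did not overlap. Its log2 difference was 0.42 (SE 0.08, limma adjusted p = 0.0133), and the adjusted p was 0.0528 without transgenic replicate 3 and 0.0534 with a pseudocount of 1. HEMA2, a glutamyl-tRNA reductase of an early step, and PORB had log2 differences of 0.57 and -0.57 with adjusted p of 0.0652 and 0.0957 in limma. PORB passed as lower without wild type replicate 1, at -0.82 (limma adjusted p = 0.00315), and without dim probe sets (0.0409). HEMA2 passed as higher without transgenic replicate 3 (limma adjusted p = 0.0489) and without dim probe sets (0.0249). CHLI2, a subunit of the chelatase that inserts magnesium, had -0.35 (limma adjusted p = 0.0529) and passed as lower in 6 alternatives, among them the omission of transgenic replicate 1 or wild type replicate 1 (0.0359 and 0.0398). The other 4 genes, GSA1, HEMB1, HEME1 and HEME2, had log2 differences between -0.10 and 0.17. In the list of chlorophyll breakdown NOL, a chlorophyll b reductase and the only one of 10 genes with a probe set, had -0.13.

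Of 20 regulators of photosynthesis genes 1 had a probe set, HYH (AT3G17609), a light-signalling transcription factor related to HY5. It had intensities of 122, 109 and 115 in transgenic seedlings, against 87.6, 69.9 and 67.5 in wild type seedlings. All transgenic arrays were above all wild type arrays. HYH rose by 0.53 on the log2 scale (SE 0.10, limma adjusted p = 0.00985), and the call held in all 14 alternatives.

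The plastid genome encodes the core that CP29 binds to. Of its 15 photosystem II genes, all with a probe set, 3 rose, 2 fell and 10 did not pass. The share that passed was 33.3%, beside 15.3% of all named genes. These are differences in probe set signal, and whether they follow the levels of plastid transcripts was not tested. The gene for CP47, psbB, next to which CP29 sits, was dim, with 22.4 ± 0.91 in transgenic and 26.8 ± 2.51 in wild type seedlings (SD, n = 3 each), and did not pass (log2 difference -0.15, limma adjusted p = 0.189). The gene for the D1 reaction centre protein, psbA, fell by 1.07 on the log2 scale. The gene for the core antenna CP43, psbC, fell by 1.32. The rises were psbI, psbJ and psbM, for small subunits, by 0.82, 0.42 and 0.38. Of these 5 calls that of psbA held in all 14 alternatives, while psbC and psbI lost theirs without 5 arrays taken singly, psbJ without 4 and psbM without 3 (adjusted p of up to 0.108, 0.111, 0.105 and 0.0629 in that order). With a pseudocount of 1 psbC, psbI, psbJ and psbM also lost their calls (limma adjusted p of 0.0932, 0.100, 0.0925 and 0.0652), and psbM did so with quantile normalization (0.0667). Without wild type replicate 1 psbK, for a small subunit, passed as higher at 1.68 (limma adjusted p = 0.000258), and psbD, for the D2 reaction centre protein, as lower at -0.79 (0.00498). With all arrays psbK had a log2 difference of 1.21 and lay just beyond the threshold (limma adjusted p = 0.0579). It passed as higher in 5 alternatives, among them median centring (0.0447) and the filter on dim probe sets (0.0198).

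**Figure D3:**
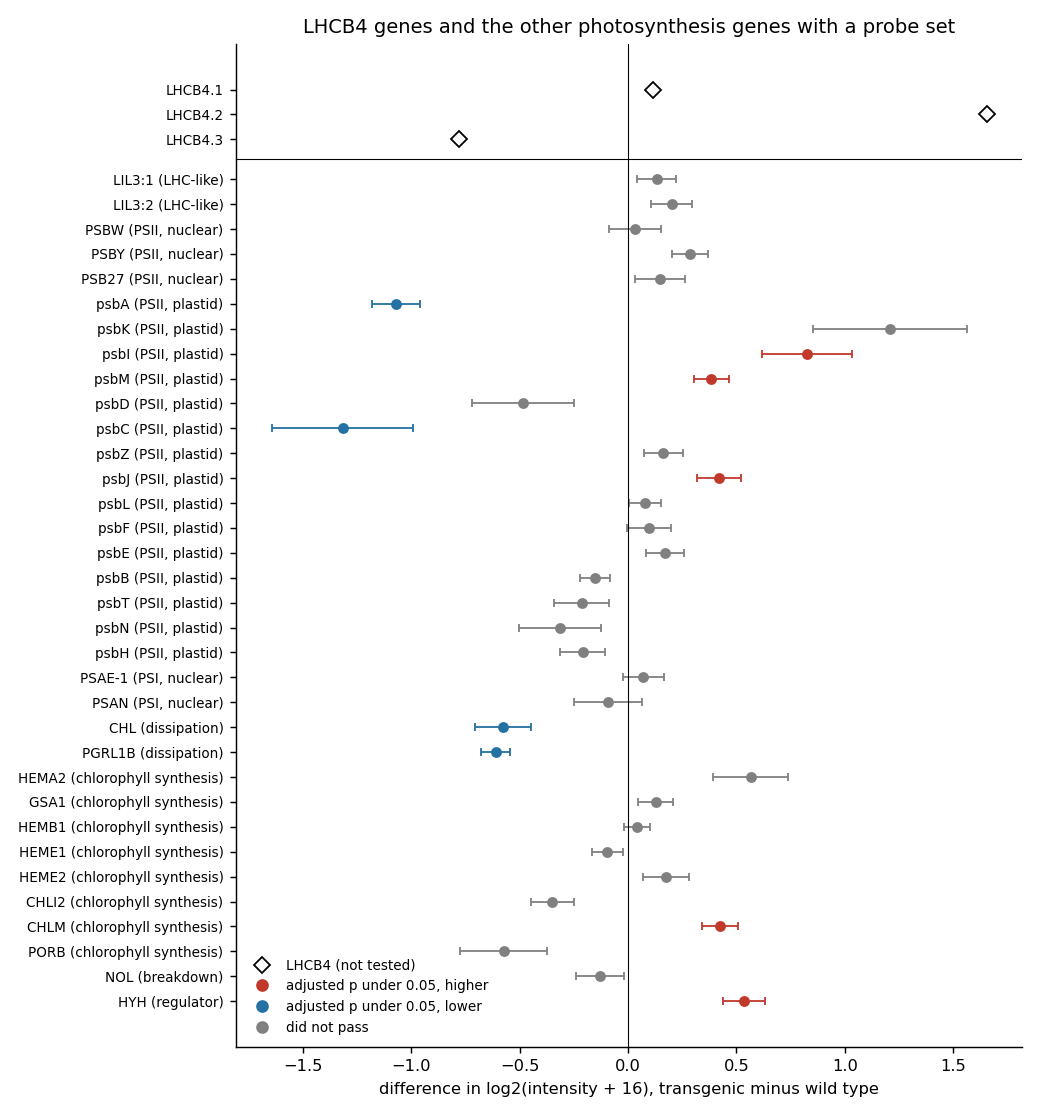
Difference in log2(intensity + 16), transgenic minus wild type, of the LHCB4 genes (diamonds, not tested) and of the 34 other photosynthesis genes with a probe set (dots with standard errors, coloured by the limma result; PSI and PSII are photosystems I and II). LHCB4.2, chosen with its value of 1.65 known, lies to the right of all 34, whose highest value is 1.21 for psbK, which did not pass.

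The fifth question was what lies beside the LHCB4 genes. The 3 genes are on different chromosomes. In the gene table of RefSeq (TAIR10.1), LHCB4.1 had 1 transcript and LHCB4.2 and LHCB4.3 had 2 each. Of the 30 genes that stand within 5 places on either side of them in gene order, 7 had a named probe set, and 2 rose and 2 fell in limma with adjustment over all probe sets. The shares over all named genes were 7.48% higher and 7.85% lower. The count of 4 fell to 2 without transgenic replicate 2 or wild type replicate 3.

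Both rises were beside LHCB4.2. AT3G08930, its neighbour on one side, had intensities of 325, 322 and 293 in transgenic seedlings, against 232, 276 and 235 in wild type seedlings. The genotypes did not overlap, and the log2 difference was 0.32 (SE 0.09, limma adjusted p = 0.0427), but the call ended without 5 of the 6 arrays taken singly, all but wild type replicate 2 (adjusted p of up to 0.128), and with a pseudocount of 1 (0.109). AT3G08910, 3 places away on the same side, had 41.7, 39.3 and 33.8 in transgenic seedlings, against 22.5, 20.6 and 24.1 in wild type seedlings. It rose by 0.50 (SE 0.08, limma adjusted p = 0.00591), a call that held without any single array. Its probe set was dim, however, with a mean over the 6 arrays under 32, and the filter on dim probe sets removed it. Between them AT3G08920 had a log2 difference of 0.21 that did not pass (limma adjusted p = 0.269). On the other side AT3G08943 overlaps the end of LHCB4.2 in the assembly and was not analysed here, and AT3G08960, 4 places away, had -0.24 (limma adjusted p = 0.199). The log2 difference of LHCB4.2, a gene chosen with its value known, was further from 0 than any of these.

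Both falls were beside LHCB4.3. Its neighbour AT2G40110 had intensities of 50.6, 52.8 and 54.2 in transgenic seedlings, against 65.4, 73.8 and 71.7 in wild type seedlings. The arrays of each genotype lay close together, and the log2 difference was -0.33 (SE 0.07, limma adjusted p = 0.0159). The call ended without transgenic replicate 2, wild type replicate 2 or wild type replicate 3 taken singly (adjusted p of up to 0.0575). AT2G40120, 4 places away on the same side, had 18.5, 18.3 and 18.9 in transgenic seedlings, against 30.1, 26.4 and 27.8 in wild type seedlings. It fell by 0.35 (SE 0.06, limma adjusted p = 0.0100), a call that held without any single array. This probe set was dim too, with a mean under 32, and was removed by the same filter.

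Beside LHCB4.1 the only gene with a named probe set was TAAC, a thylakoid ATP/ADP carrier. It had intensities of 119.5, 123 and 99.7 in transgenic seedlings, against 88.8, 104 and 92.7 in wild type seedlings. These overlapped, and its log2 difference of 0.22 did not pass (limma adjusted p = 0.159). Among the 10 nearest genes with a probe set on each side, a window chosen after the data were seen, 3 of 60 rose and 6 fell. Around LHCB4.2 these were 2 rises and 1 fall of 20, around LHCB4.3 0 rises and 3 falls of 20, and around LHCB4.1 1 rise and 2 falls of 20. Over all named genes the shares were 7.48% higher and 7.85% lower. The median log2 difference of the 60 was -0.01.

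**Figure D4:**
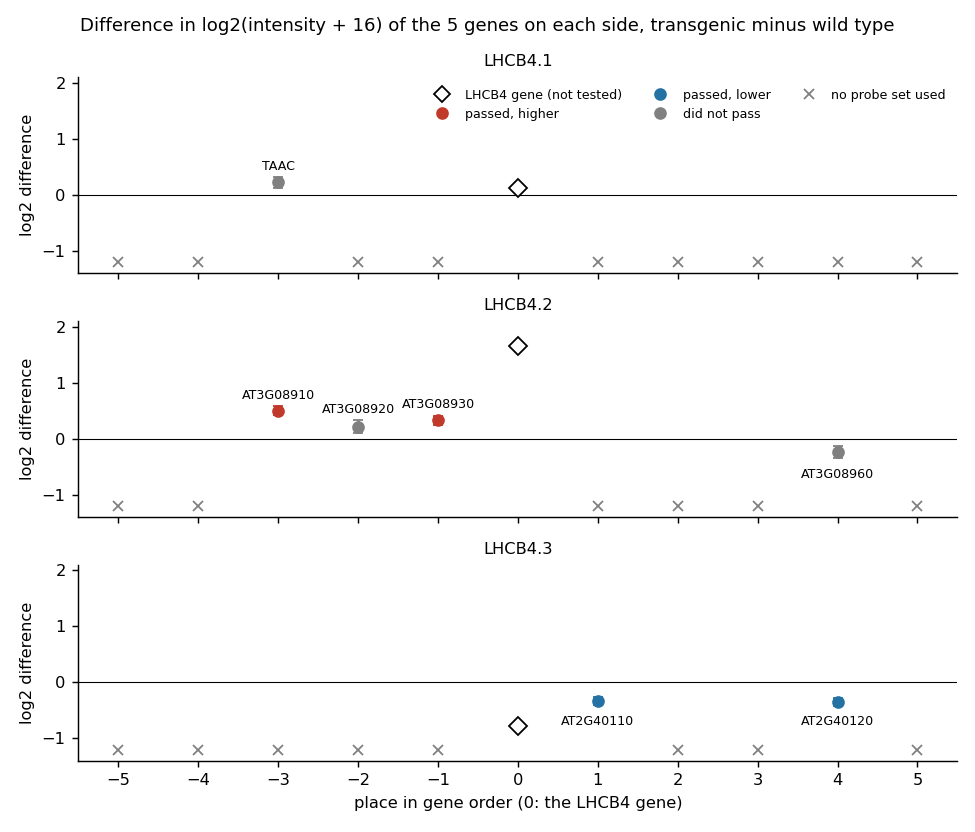
Difference in log2(intensity + 16), transgenic minus wild type, of the genes within 5 places of each LHCB4 gene in gene order (dots with standard errors, coloured by the limma result), with the LHCB4 gene itself at place 0 (diamond, not tested). Crosses at the bottom mark genes with no probe set used. The 2 rises stand beside LHCB4.2 and the 2 falls beside LHCB4.3.

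The last question was which genes had the pattern over the 6 arrays most like that of each LHCB4 gene. Likeness was measured by Pearson's r of log2(intensity + 16) over the 6 arrays, among 3136 other genes with a mean intensity of at least 100. The arrays share their genotype, and those of LHCB4.2 fall into 2 separate clusters, so these values only rank genes.

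For LHCB4.2 the 5 genes were AT3G45050 (r = 0.9997), AT2G41650, AT2G32170, UGT88A1 and JAL33, the last with r = 0.997. Their patterns were those of 2 separate levels, with small spread except in wild type seedlings for AT2G41650. That gene had means of 237 ± 12.3 in transgenic and 53.6 ± 12.2 in wild type seedlings (SD, n = 3 each). AT3G45050 had means of 156 ± 7.87 in transgenic and 54.9 ± 4.57 in wild type seedlings (SD, n = 3 each). UGT88A1, a UDP-glycosyltransferase gene, had 472 ± 19.4 in transgenic and 161 ± 11.8 in wild type seedlings, and JAL33, a jacalin-type lectin gene, 1008 ± 66.9 in transgenic and 269 ± 21.5 in wild type seedlings (SD, n = 3 each). The log2 differences of the 5 lay between 0.70 and 1.88.

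For LHCB4.1 the 5 genes were NdhL (r = 0.995), AT3G08920, AT5G57345, AT3G56130 and AT3G18680, with log2 differences between 0.08 and 0.21. NdhL, a subunit of the chloroplast NDH complex, had means of 349.7 ± 8.01 in transgenic and 315 ± 51.6 in wild type seedlings (SD, n = 3 each). All 5 had their lowest value of the 6 arrays on wild type replicate 1, as LHCB4.1 did. AT3G08920 is the gene 2 places from LHCB4.2 described above.

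For LHCB4.3 the 5 genes were AT1G52200 (r = 0.994), GH9B13, AT4G15940, AT3G60770 and AT2G37500. GH9B13, of the glycosyl hydrolase family that includes cellulases, had means of 79.8 ± 18.9 in transgenic and 135.5 ± 18.2 in wild type seedlings (SD, n = 3 each). The log2 differences of the 5 lay between -0.67 and -0.11, and all had their lowest value on transgenic replicate 1, as LHCB4.3 did.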

How the data were processed

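Transcript levels were measured in whole seedlings of 2 genotypes on 3 Affymetrix arrays each. The authors deposited 1 intensity per probe set and array, not logged; how they computed and scaled it is not given in the sources used here. The mean after removal of 2% at each end was 100 on every array, so no further normalization was applied. Of 22810 probe sets 64 controls were left out and 22746 tested. The platform annotation gave 13513 of them a single gene, and 13436 of these matched the RefSeq gene table (assembly TAIR10.1) by gene identifier, for 13286 genes. Another 503 were annotated to several genes and were assigned to none here. A gene said to have no probe set may thus still have probes on the array. Where a gene had several probe sets, the one with the highest mean was used. Plastid genes were matched by symbol.

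The comparison used limma 3.58.1 (lmFit, eBayes; R 4.3.3) on log2(intensity + 16), without covariates. Fold changes are transgenic minus wild type, and the Benjamini-Hochberg adjusted p had to be under 0.05 over all tested probe sets. The procedure was tried on data simulated with independent noise in each probe set. Shifts shared by many genes on 1 array were not simulated. The number of arrays limits the precision. The LHCB4 genes, the gene lists and the tests were chosen with earlier results of these data known. Named genes were the LHCB4 genes, up to 4 passing members per list with the smallest p, neighbours with a probe set, and the 5 genes most alike; list members named outside this rule were chosen after their values were seen. Alternatives were quantile normalization, median centring, filters on dim probe sets (mean under 32) and on shared probe sets, a variance trend, pseudocounts of 1 and 64, a replicate block and omission of each array. Sequences were not used here.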

Additional observations from a re-analysis of the deposited data

How the results depend on the processing

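The direction of LHCB4.1, LHCB4.2 and LHCB4.3 was the same in all 14 alternatives. Without single arrays their log2 differences ranged from 0.02 to 0.18, 1.57 to 1.72 and -0.95 to -0.57. Over all probe sets, 3751 changed (1861 higher, 1890 lower). With a pseudocount of 1 these were 2143 (1184 and 959). Without single arrays they were 2181 to 3433 (1213 to 1741 and 968 to 1692), with 2181 without transgenic replicate 3, 2290 without transgenic replicate 2, 2323 without wild type replicate 3 and 2358 without wild type replicate 2. The 9 changed photosynthesis genes (5 higher, 4 lower) became 14 (8 and 6) without dim probe sets and 3 (1 and 2) with a pseudocount of 1, and 4 to 14 (2 to 6 and 2 to 8) without single arrays. The 4 changed neighbours (2 and 2) became 2 (1 and 1) without dim probe sets, 3 (1 and 2) with a pseudocount of 1, 2 to 3 (1 to 2 and 1 to 2) without single arrays, and 9 (3 and 6) in the wider window, chosen after seeing the data. Without dim probe sets the neighbours AT3G08910 and AT2G40120 dropped out of the count, because their means lay under 32 and the filter removed them. The wider window counted 60 genes in place of 7. The cause of the other shifts was not tested. Of the 569 values of 41 single genes under an alternative, 38 lost a call, 23 gained one and 3 changed sign, none of the 3 called. PSBW was below 0 without transgenic replicate 3 or wild type replicate 1 and ranged from -0.089 to 0.101 without single arrays, and PSAN was above 0 without wild type replicate 2 and ranged from -0.29 to 0.039.

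Same-numbered arrays of the genotypes had correlations of their deviations from the genotype means of 0.19, 0.06 and 0.11. The numbers were not taken as pairs, because not every correlation was over 0.1; that 5 of 6 arrays correlated best with their own number is a hint of pairing from the data, not from the design. With a replicate block 3592 probe sets changed, against 3751 without it, and 11 photosynthesis genes, against 9. The 2 further genes were PORB, lower (adjusted p = 0.0317), and psbK, higher (0.0330).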
